A study of Mus musculus with 8 samples.

Results

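The respiratory chain of the inner mitochondrial membrane was followed at the level of its messenger RNAs, gene by gene, in mouse embryonic fibroblasts (MEFs) kept with and without glucose. Members were the rows named Nduf (subunit classes a, b, c, s and v), Sdha to Sdhd, Uqcr, Cox4 to Cox8, Atp5 and the protein genes of mitochondrial DNA (mt-), without pseudogene names (-ps), that reached 1 CPM (read counts relative to a scaled library size) in at least 2 of the 8 samples. This gave 90 of the 49492 rows, 77 encoded in the nucleus and 13 in mitochondrial DNA. Of 97 matching names, 7 lay under the minimum (Cox7a1, Cox4i2, Ndufa4l2, Cox6b2, Cox8b, Cox7b2 and Cox8c), and 6 pseudogene names were left out. By complex, 42 members belonged to complex I (35 nuclear, 7 mitochondrial), 4 to complex II, 9 to complex III (8 and 1), 16 to complex IV (13 and 3) and 17 to complex V (15 and 2). The remaining nuclear members, Atp5s and Atp5sl, match the name but are not structural subunits.

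The study asked what arginine methylation of Pontin, an ATPase of chromatin remodelling complexes encoded by Ruvbl1, does in cells deprived of glucose. Pontin f/f MEFs, immortalised by the 3T3 protocol, carried a lentiviral Flag-tagged Pontin, either WT or a form with 2 arginines replaced by alanine (RA), and a Cre virus removed the endogenous gene, so the WT cells too lived on the added copy. Each genotype was cultured in normal medium or in medium without glucose that held dialyzed serum, giving WT normal, WT starved, RA normal and RA starved groups of 2 samples each; the length of starvation behind these libraries was not given in the sources used here. Each genotype was 1 stably selected line, so line and Pontin form cannot be told apart, and the labels do not say whether replicates came from separate cultures, so p-values measure only the spread between these samples.

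The chain passes electrons from NADH (complex I) and succinate (complex II) through ubiquinone to complex III, through cytochrome c to complex IV and on to oxygen, and complex V uses the resulting proton gradient to make ATP. Complexes I, III, IV and V mix subunits of both genomes, whereas complex II is wholly nuclear. Mitochondrial DNA is transcribed from both strands as long precursors, which are cut apart largely at the transfer RNAs between the coding genes, so the genes of one strand start from shared transcripts. Cultured fibroblasts meet much of their energy need by glycolysis while glucose is plentiful.

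The libraries held 43205841 to 56363034 reads, and the test covered 16232 genes. The sum of 9 fibroblast markers lay between 10899.9 and 11003 CPM in WT normal samples and between 5563 and 5649 in WT starved samples. In RA it lay between 10829 and 11173 in normal medium and between 7326 and 7340.5 under starvation, and its part in the results below was not tested. Summed markers of epithelium, endothelium, blood cells, skeletal muscle and heart muscle stayed between 0 and 6.60 CPM in every sample. Ruvbl1 stood at 28.4 and 27.6 CPM in WT normal, 27.9 and 28.4 in WT starved, 36.8 and 32.0 in RA normal and 45.0 and 42.9 in RA starved samples. These reads include the added copy, so they do not check the labels. In cell populations such as these, fewer cells of a kind and less RNA per cell cannot be told apart.

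The mitochondrial genes moved in both directions under starvation. In both genotypes mt-Co1, the catalytic subunit of complex IV, rose, while the genes of complexes I, III and V fell. mt-Co1 stood at 6103 and 6212 CPM in WT normal, 9718 and 10300.0 in WT starved, 6011 and 6174 in RA normal and 8080.3 and 7841 in RA starved samples. Both starved samples of each genotype lay above both normal samples, and WT starved samples lay above RA starved samples. The log2 fold change was 0.70 (SE 0.059, limma adjusted p = 8.06e-09) in WT and 0.39 (SE 0.059, limma adjusted p = 1.91e-05) in RA, with adjustment by Benjamini-Hochberg (BH) over all tested genes and a call at adjusted p under 0.05. mt-Co2 stood at 2698 and 2713 CPM in WT normal, 2804 and 3120.3 in WT starved, 2702 and 2836 in RA normal and 2598 and 2485 in RA starved samples. This subunit, which takes electrons from cytochrome c, was called higher in WT at 0.13 (SE 0.055, limma adjusted p = 0.0406) and had a log2 change of -0.12 (SE 0.055, limma adjusted p = 0.0548) in RA. The WT call for mt-Co2 was lost with scaling to total reads and without WT normal replicate 1 or 2, WT starved replicate 2 or either RA starved sample, and its sign turned with quantile normalization (-0.063). That method gives a gene of unchanged rank the same value in every sample, which set both changes of mt-Co1 to 0 by construction and so does not bear on them. mt-Co3 stood at 2535 and 2569 CPM in WT normal, 2342 and 2493 in WT starved, 2656 and 2748 in RA normal and 2422 and 2299.6 in RA starved samples. It fell in RA at -0.19 (SE 0.049, limma adjusted p = 0.00214), and its change in WT was -0.079 (SE 0.049, limma adjusted p = 0.153).

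All 7 mitochondrial genes of complex I, the core of its proton-pumping membrane arm, fell in both genotypes. mt-Nd3 stood at 246 and 269.6 CPM in WT normal, 114 and 127 in WT starved, 229 and 250.3 in RA normal and 124 and 128 in RA starved samples. Its fall of -1.09 (SE 0.055, limma adjusted p = 8.19e-12) in WT and -0.92 (SE 0.055, limma adjusted p = 1.64e-10) in RA was the lowest log2 value among the 13 mitochondrial members in each genotype. The other complex I genes of mitochondrial DNA ran from -0.80 (mt-Nd4l) to -0.53 (mt-Nd1) in WT and from -0.84 (mt-Nd2) to -0.50 (mt-Nd6) in RA. mt-Cytb stood at 1651 and 1700.0 CPM in WT normal, 825 and 890.3 in WT starved, 1569.8 and 1653 in RA normal and 918 and 891 in RA starved samples. Cytochrome b, the one mitochondrial subunit of complex III, thus fell by a log2 value of -0.97 (SE 0.046, limma adjusted p = 3.65e-12) in WT and -0.83 (SE 0.046, limma adjusted p = 5.99e-11) in RA. The complex V pair fell less. mt-Atp6 stood at 2776 and 2749 CPM in WT normal, 2116 and 2348 in WT starved, 2678 and 2854 in RA normal and 2089 and 2062 in RA starved samples. Both genotypes had a lower level under starvation, with log2 changes of -0.31 (WT) and -0.41 (RA), and that of mt-Atp8, which shares 43 bases and an mRNA with it, was -0.35 and -0.52.

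In the WT response 2 of 13 mitochondrial members were called higher and 10 lower, with a median log2 change of -0.56, and in the RA response 1 was called higher and 11 lower, with a median of -0.56. Quantile normalization, with mt-Co1 at 0 by construction, left 0 higher and 11 lower in WT. Starvation moved most of the transcriptome, so these counts stand beside a high background. Of all tested genes 78.6% were called in WT, 39.3% higher and 39.2% lower, with a median of 0.0049. In RA 68.7% were called, 35.0% higher and 33.7% lower, with a median of 0.013. All 10 mitochondrial genes called lower in WT were called lower in RA too, which made up 90.9% of the 11 RA calls. Over all tested genes the shared lower calls made up 69.7% of the WT and 81.2% of the RA calls.

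**Figure D1:**
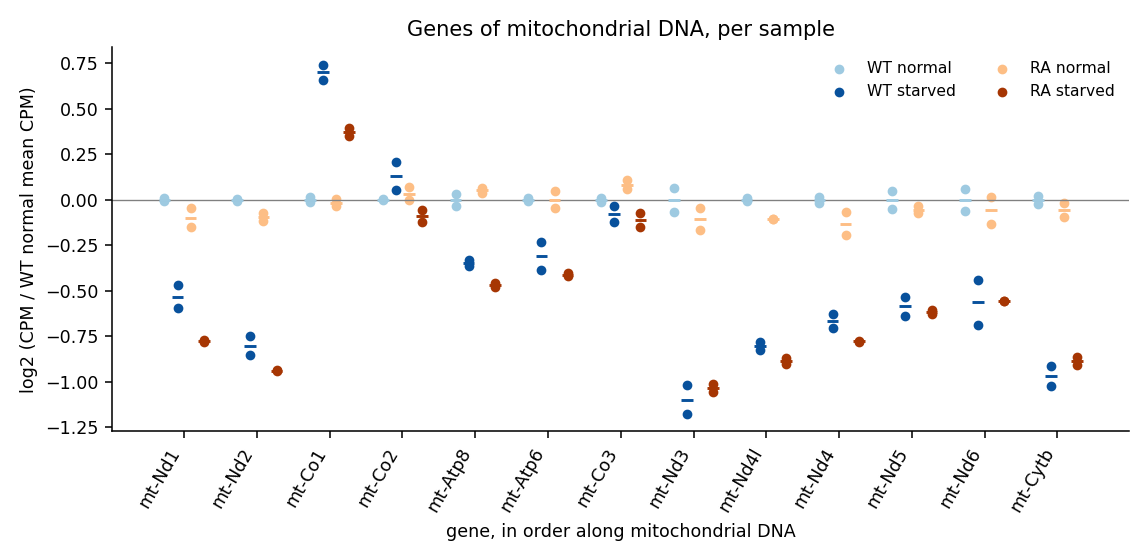
Level of the 13 mitochondrial members in each sample as log2 of CPM over the mean of the WT normal samples (y axis), in their order along mitochondrial DNA (x axis). Points are samples, short lines are means of the log2 values in groups of 2, and mt-Co1 is the gene whose starved samples of both genotypes sit well above the line at 0.

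Along mitochondrial DNA the order is mt-Nd1, mt-Nd2, mt-Co1, mt-Co2, mt-Atp8, mt-Atp6, mt-Co3, mt-Nd3, mt-Nd4l, mt-Nd4, mt-Nd5, mt-Nd6 and mt-Cytb, and mt-Nd6 alone lies on the opposite strand. The 5 neighbours from mt-Co1 to mt-Co3 held the 5 highest log2 changes in WT, and in RA 4 of them did, with mt-Nd6 (-0.50) above mt-Atp8 (-0.52). Per kilobase of exon, the same 5 genes also had the highest values in WT normal samples. The lengths came from GRCm38 annotation, not mm9, and 43 of the 204 exon bases of mt-Atp8 are shared with mt-Atp6. Values of the 5 genes in WT normal samples ran from 3255 ± 31.2 CPM per kilobase (SD, n = 2) for mt-Co3 to 4267 ± 144 for mt-Atp8. The lowest was 599 ± 29.6 for mt-Nd5. Under starvation mt-Co1 led with 6478 ± 267 in WT and 5152 ± 109.7 in RA, and mt-Nd3 came last with 346 ± 26.5 and 362 ± 7.84. The ratio of the highest to the lowest mean per kilobase was 7.13 in WT normal, 18.7 in WT starved, 7.67 in RA normal and 14.2 in RA starved samples. In that order, neighbours such as mt-Co1 and mt-Co2 in WT normal samples (3986 ± 49.7 and 3955 ± 15.1) did not differ beyond their spread.

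Several mitochondrial rows have near-identical rows among nuclear copies of mitochondrial DNA. The row Gm10925 on chromosome 1 matches mt-Atp6 at 100% of 678 aligned bases, and its values differed from those of mt-Atp6 by at most 0.0485% in any sample. Likewise Gm28661 (mt-Co2), Gm28437 (mt-Co3) and Gm10222 (mt-Nd4l) stayed within 0.0357%, 0.145% and 1.05% of the mitochondrial row. Reads of such pairs cannot be assigned to one place from the table. The mt-Nd3 copy Gm28438 shows how close the sequences are: over 345 aligned bases there was 1 difference, T3C, counted from the first base of mt-Nd3 with the mitochondrial base first. Both starts are shown on the coding strand of GRCm38 annotation (GENCODE M21), with the differing base in capitals, at chrM:9459-9491 (plus strand) and chr1:24613087-24613119 (minus strand).
mt-Nd3: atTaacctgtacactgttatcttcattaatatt
Gm28438: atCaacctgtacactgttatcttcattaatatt
The files use mm9, so these coordinates serve only to place the letters. Gm28438 stood at 259.8 and 279 CPM in WT normal and 117 and 129 in WT starved samples. For mt-Co1, Gm29216 matches 31.3% of the gene at 99.8% identity, and Gm13340 on chromosome 2 matches all 1545 bases at 97.6% identity. Gm29216 stood at 1833 and 1929 CPM in WT normal and 3091 and 3511 in WT starved samples. In RA it stood at 1858 and 1987 CPM in normal medium and 2646 and 2550 under starvation. Gm13340 stood at 34.4 to 61.2 CPM over the 8 samples, at least 99.3% below mt-Co1 in each. For mt-Nd4, Gm28439 matches 63.6% of the gene at 100% identity, with values 42.0% to 44.9% below those of mt-Nd4. No copy row of at least 95% identity was found for mt-Nd1, mt-Cytb, mt-Atp8 and mt-Nd6. The search covered annotated transcripts only. Its minimum match length was close to the 204 bases of mt-Atp8, so a copy of that gene could hardly be found. The part of copies in the changes of the mitochondrial rows was not tested.

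The other rows of mitochondrial DNA moved both ways. The libraries were poly(A)-selected, so levels of transfer RNAs cannot be read from these rows. Over all tested genes 39.3% were called higher and 39.2% lower in WT, and 35.0% and 33.7% in RA. Of 22 tested ribosomal and transfer RNA rows, 4 rose and 17 fell in WT, and 5 rose and 14 fell in RA. The highest change in WT among those with a mean of at least 10 CPM was that of mt-Tp at 1.69 (SE 0.10, limma adjusted p = 1.28e-10), and the lowest was that of mt-Te at -0.87 (SE 0.090, limma adjusted p = 1.11e-07). The row mt-Ts1, which shares 3 bases with the end of mt-Co1 on the opposite strand and was named after its values were seen, moved with it. It stood at 156 and 169.9 CPM in WT normal and 258 and 299 in WT starved samples, a log2 change of 0.77 against 0.70 for mt-Co1. How strand was handled in counting was not given, so reads of mt-Co1 and mt-Ts1 cannot be told apart at the shared end. Whether other reads of the mt-Ts1 row came from the strand of mt-Co1 was not tested. Likewise mt-Nd6 shares 14 bases with mt-Nd5 on the opposite strand, and the strand its reads came from was not tested.

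Summed over the 13 genes, the mitochondrial level in WT was 23130.4 ± 221 CPM (SD, n = 2) in normal medium and 23266 ± 1199 under starvation. In RA it was 22843 ± 722 and 20228 ± 382. The make-up of the sum changed more than its size in WT. Of that sum mt-Co1 made up 26.6% and 26.7% in WT normal, 43.3% and 42.7% in WT starved, 26.9% and 26.4% in RA normal and 39.4% and 39.3% in RA starved samples. Without mt-Co1 the sum was 16973 ± 145 in WT normal, 13257 ± 787 in WT starved, 16750.5 ± 607 in RA normal and 12267 ± 212 in RA starved samples. The 77 nuclear members summed to 8198 ± 142 in WT normal, 7675 ± 180.3 in WT starved, 8824 ± 274 in RA normal and 7249.7 ± 81.7 in RA starved samples. Complex V made up the largest nuclear sum, with 3799 ± 54.4 against 3095 ± 55.5 CPM in WT and 4026 ± 111 against 2856 ± 19.7 in RA. The nuclear sum of complex IV was instead higher in WT starved samples (1665 ± 55.2) than in WT normal samples (1461 ± 23.2), and in RA it went from 1605 ± 62.0 to 1524 ± 30.6. These sums are descriptions without a test.

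**Figure D2:**
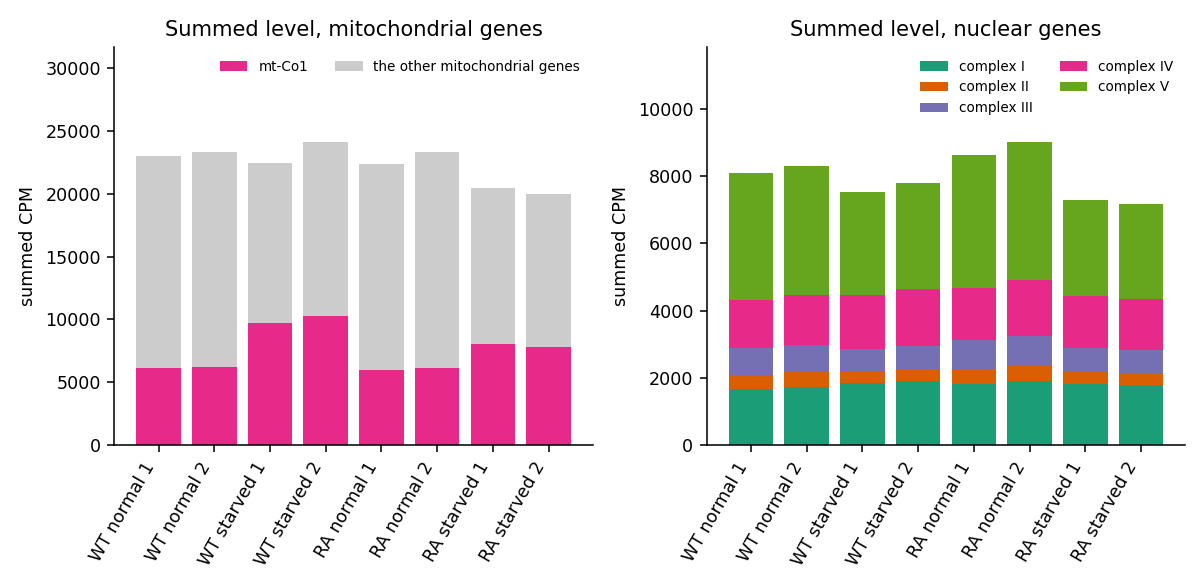
Summed CPM in each of the 8 samples (y axis, from 0), for mitochondrial members split into mt-Co1 and the others (left) and for nuclear subunits stacked by complex (right). The mt-Co1 part of the bars is taller in the 4 starved samples, and the complex V part is shorter.

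The nuclear members moved in both directions in WT and mostly downward in RA. In WT 28 of 77 were called higher and 31 lower, against 39.3% and 39.2% of all tested genes, with a median log2 change of -0.030. Scaling to total reads changed this split to 21 higher and 37 lower. In RA 12 were called higher and 44 lower, with a median of -0.18, so the share called lower was 57.1% against 33.7% of all tested genes. WT and RA responses come from separate samples. Of the 31 nuclear members lower in WT, 27 (87.1%) were lower in RA, which is 61.4% of the 44 RA calls. Over all tested genes, the genes lower in both made up 69.7% of those lower in WT and 81.2% of those lower in RA. Of the 28 higher in WT, 11 (39.3%) were higher in RA and 7 were lower there. Over all tested genes, 69.0% of those higher in WT were higher in RA and 4.46% were lower. The 7 members that rose in WT and fell in RA were Atp5d, Atp5e, Cox5b, Cox7c, Ndufb10, Ndufb11 and Uqcr10. Among mitochondrial members limma called 0 higher in WT and lower in RA, and edgeR and DESeq2 each called 1, mt-Co2, whose RA value in limma is given above.

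**Figure D3:**
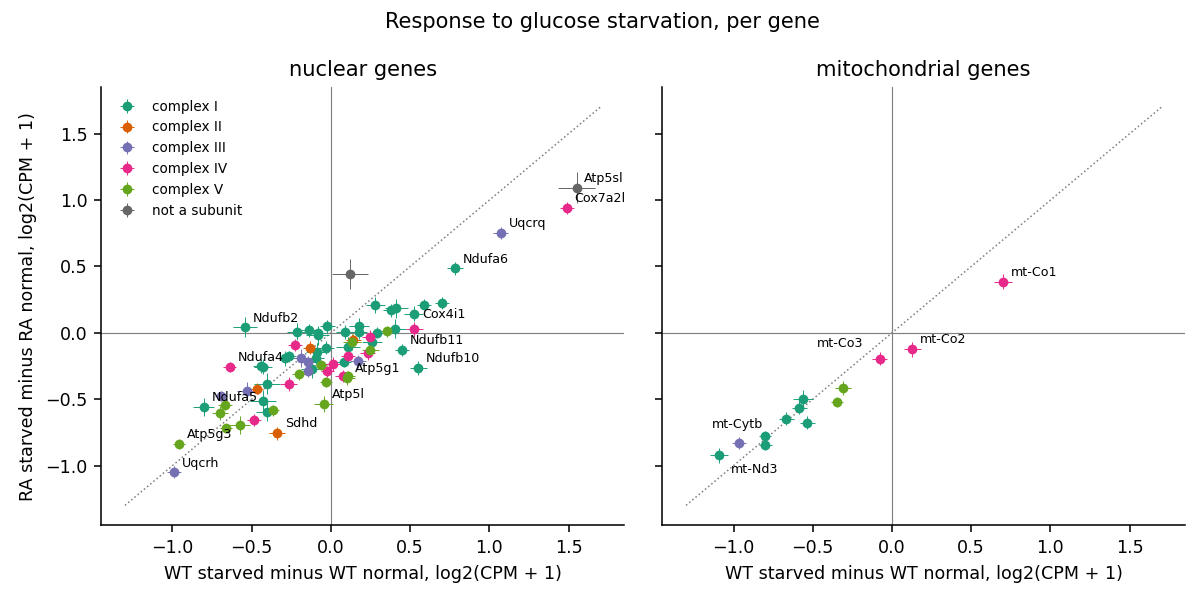
Log2 change on starvation in WT (x axis) and in RA (y axis) for each nuclear member (left) and mitochondrial member (right), on the log2(CPM + 1) scale, with SE bars from limma; the dotted line marks equal change. Cox6a2, at 3.50 and 2.86, is left off, and most nuclear subunits of complexes IV and V lie below the line.

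Complex I, the NADH dehydrogenase, showed no common direction among its 35 nuclear members. In WT 14 rose and 11 fell, and in RA 7 rose and 13 fell, with medians of -0.022 and -0.020. Of all tested genes 39.3% were called higher and 39.2% lower in WT, and 35.0% and 33.7% in RA. The 7 mitochondrial members of complex I had medians of -0.67 and -0.68. Among the 7 nuclear core subunits, Ndufv1, which binds NADH, rose with a log2 change of 0.59 (SE 0.045, limma adjusted p = 2.11e-09) in WT and 0.21 (SE 0.045, limma adjusted p = 0.000434) in RA, and Ndufs1, the largest iron-sulfur subunit, fell with -0.26 and -0.18. Accessory subunits spanned the range. Ndufa6 stood at 50.2 and 51.4 CPM in WT normal, 85.3 and 90.9 in WT starved, 51.9 and 56.4 in RA normal and 78.2 and 74.2 in RA starved samples. This accessory subunit had the highest log2 change of the complex in both genotypes, with 0.78 (SE 0.052, limma adjusted p = 3.14e-10) in WT and 0.49 (SE 0.052, limma adjusted p = 2.79e-07) in RA. Ndufa5 stood at 28.8 and 32.4 CPM in WT normal, 16.5 and 17.7 in WT starved, 32.9 and 33.2 in RA normal and 22.3 and 22.0 in RA starved samples. It was the lowest nuclear gene of the complex in WT at -0.80 (SE 0.068, limma adjusted p = 9.11e-09), and Ndufb4 was the lowest in RA at -0.60 (SE 0.067, limma adjusted p = 5.36e-07).

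Some accessory subunits of complex I answered differently in the 2 genotypes. Ndufb10 stood at 38.4 and 40.9 CPM in WT normal, 56.5 and 60.7 in WT starved, 43.3 and 45.7 in RA normal and 36.4 and 37.3 in RA starved samples. The WT starved samples were the highest and the RA starved samples the lowest, without overlap with their normal samples. The RA response less the WT response, called interaction here, was -0.81 (SE 0.078, limma adjusted p = 2.33e-07). Ndufb11 also rose in WT and fell in RA, with an interaction of -0.58 (SE 0.064, limma adjusted p = 1.26e-06), and 117 of its exon bases overlap Rbm10 on the opposite strand. Ndufb2 stood at 20.8 and 21.0 CPM in WT normal, 13.4 and 14.7 in WT starved, 24.8 and 21.9 in RA normal and 23.8 and 24.2 in RA starved samples. Here only the WT starved samples were low, and the interaction was 0.58 (SE 0.11, limma adjusted p = 0.00023). Ndufb2 shares 145 exon bases on its strand with Gm42420, whose interaction was 0.60, so reads of that stretch cannot be assigned.

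Complex II, succinate dehydrogenase, also works in the citric acid cycle. Its flavoprotein Sdha, which oxidises succinate, stood at 191 and 188 CPM in WT normal and 140.1 and 134 in WT starved samples, and at 199 and 195 and 151 and 142 in RA. It fell in both genotypes, at -0.47 (SE 0.041, limma adjusted p = 1.35e-08) and -0.42 (SE 0.041, limma adjusted p = 9.23e-08). Sdhd stood at 90.0 and 93.8 CPM in WT normal, 71.4 and 73.4 in WT starved, 95.2 and 98.7 in RA normal and 54.4 and 59.7 in RA starved samples. This membrane anchor fell in both and reached its lowest level in RA starved samples, with -0.34 (SE 0.049, limma adjusted p = 6.78e-06) in WT, -0.76 (SE 0.049, limma adjusted p = 4.38e-10) in RA and an interaction of -0.42 (SE 0.069, limma adjusted p = 9.55e-05). The other anchor, Sdhc, had log2 changes of -0.13 and -0.11, both called lower, the RA call being lost on leaving out any 1 of the 4 RA or the 2 WT normal samples and the WT call without replicate 2 of either WT group. The iron-sulfur subunit Sdhb was called higher in WT at 0.14 (SE 0.045, limma adjusted p = 0.00887), a call lost with scaling to total reads and without WT normal replicate 1, and its change in RA was -0.056 (SE 0.045, limma adjusted p = 0.283).

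Complex III held subunits that moved strongly in opposite directions. Uqcrq stood at 75.2 and 80.4 CPM in WT normal, 159 and 171 in WT starved, 85.6 and 91.1 in RA normal and 150.0 and 149 in RA starved samples. This accessory subunit rose in both genotypes, at 1.07 (SE 0.047, limma adjusted p = 1.21e-12) in WT and 0.75 (SE 0.047, limma adjusted p = 3.03e-10) in RA. Uqcrh stood at 207 and 211 CPM in WT normal, 101 and 108 in WT starved, 232 and 238 in RA normal and 117 and 109 in RA starved samples. The hinge protein Uqcrh fell at -0.99 (SE 0.044, limma adjusted p = 1.48e-12) in WT and -1.05 (SE 0.044, limma adjusted p = 1.64e-12) in RA, and each starved sample lay below each normal sample. In all, 2 of 8 nuclear members rose and 6 fell in WT, and 1 rose and 7 fell in RA. Among all tested genes 39.3% were called higher and 39.2% lower in WT, and 35.0% and 33.7% in RA. Uqcrc1, a core protein, fell less in RA (-0.47) than in WT (-0.69), with an interaction of 0.22 (SE 0.052, limma adjusted p = 0.00222). Uqcr10 rose in WT (0.17) and fell in RA (-0.21), with an interaction of -0.38 (SE 0.070, limma adjusted p = 0.000225). Its WT call was lost with scaling to total reads.

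Complex IV, cytochrome c oxidase, had the largest share of nuclear genes called between the responses among the 5 complexes: 10 of 13 had a lower response in RA and 1, Ndufa4, a higher one. The 10 include Cox6a2, which reached 1 CPM only in starved samples. Over all tested genes the interaction was called lower for 26.1% and higher for 24.5%. In WT 6 rose and 4 fell, and in RA 2 rose and 8 fell. Beside these counts, 39.3% of all tested genes were called higher and 39.2% lower in WT, and 35.0% and 33.7% in RA. Cox7a2l stood at 77.4 and 84.1 CPM in WT normal, 223 and 233 in WT starved, 96.4 and 94.2 in RA normal and 187 and 180.2 in RA starved samples. Cox7a2l, which helps to join complexes III and IV into supercomplexes, rose at 1.49 (SE 0.045, limma adjusted p = 6.47e-15) in WT and 0.94 (SE 0.045, limma adjusted p = 8.13e-12) in RA, with an interaction of -0.55 (SE 0.063, limma adjusted p = 2e-06). Its row shares 201 bases with Gm6969 at 100% identity, which averaged 9.17 CPM. Cox4i1 stood at 256 and 272 CPM in WT normal, 368 and 394 in WT starved, 283 and 325 in RA normal and 311 and 307 in RA starved samples. The common isoform of subunit 4 thus rose in WT at 0.53 (SE 0.055, limma adjusted p = 1.23e-07), changed by 0.026 (SE 0.055, limma adjusted p = 0.691) in RA and had an interaction of -0.50 (SE 0.077, limma adjusted p = 4.68e-05). Ndufa4 stood at 146 and 154 CPM in WT normal, 94.5 and 97.5 in WT starved, 164 and 161 in RA normal and 136 and 135 in RA starved samples. Ndufa4, named for complex I but now known as a subunit of complex IV, fell in WT at -0.64 (SE 0.040, limma adjusted p = 1.28e-10) and less in RA at -0.26 (SE 0.040, limma adjusted p = 2.13e-05). Its interaction was 0.38 (SE 0.056, limma adjusted p = 2.79e-05). Cox7b, the lowest of the complex in RA, fell at -0.66 (SE 0.043, limma adjusted p = 5.59e-10) there and -0.49 (SE 0.043, limma adjusted p = 1.7e-08) in WT.

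Several complex IV subunits exist as paired isoforms, one of wide use and one of narrower use. The narrower forms include ones known from muscle, lung or testis, and Cox4i2 and Ndufa4l2 are known as hypoxia-induced. The second forms Cox4i2, Cox6b2, Cox7a1, Cox8b, Cox8c and Ndufa4l2 lay under the minimum of 1 CPM. The exception was Cox6a2, the heart and skeletal muscle form of subunit 6a. Cox6a2 stood at 0.391 and 0.242 CPM in WT normal, 13.5 and 14.4 in WT starved, 0.414 and 0.426 in RA normal and 9.24 and 9.37 in RA starved samples, with 12 to 22 reads in each normal sample and 454 to 786 in each starved sample. It reached the minimum of 1 CPM only through the starved samples, where it is high, so its rise is given as a description without a test, and the counts over nuclear members include it. The starved mean was 43.9 times the normal mean in WT and 22.2 times in RA. On the log2(CPM + 1) scale the changes were 3.50 and 2.86, and across the alternatives the WT value ran from 1.83 to 5.46 and the RA value between 1.40 and 4.46, the lowest with a pseudocount of 5 and the highest with DESeq2. Summed skeletal muscle markers stayed between 0 and 0.261 CPM in every sample. Summed heart muscle markers lay at 0.121 to 0.174 CPM in WT normal, 0.438 to 0.503 in WT starved, 0.388 to 0.552 in RA normal and 0.496 to 0.666 in RA starved samples, and their part in the values of Cox6a2 was not tested. Cox6a2 shares 70 exon bases with Itgad, an integrin gene on the opposite strand. Itgad stood at 1.39 and 1.13 CPM in WT normal, 14.9 and 16.3 in WT starved, 1.22 and 1.28 in RA normal and 9.99 and 10.2 in RA starved samples, and it rose at 2.88 (SE 0.11, limma adjusted p = 2.63e-13) in WT and 2.31 (SE 0.11, limma adjusted p = 1.24e-11) in RA. Since strand handling was not given, reads of the 2 genes cannot be told apart in the shared stretch. The common form Cox6a1 was at 131 and 125 CPM in WT normal and 146 and 159 in WT starved samples, with log2 changes of 0.25 (called higher) and -0.031 in RA (not called). Cox6b1 changed by 0.016 in WT (not called) and -0.23 in RA (called lower), Cox8a by -0.022 (not called) and -0.29 (called lower), and Cox7a2 by -0.27 and -0.39 (both called lower).

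Complex V, the ATP synthase, fell across its nuclear genes in RA: 13 of 15 were called lower and 0 higher, with a median of -0.37. The count of 0 was the same at unadjusted p under 0.05 in limma, in edgeR and in DESeq2. In WT 4 rose and 7 fell, with a median of -0.062. The shares over all tested genes were 35.0% higher and 33.7% lower in RA, and 39.3% and 39.2% in WT. All 5 genes of the catalytic F1 part fell in RA, against 2 that rose and 3 that fell in WT. Atp5b, the catalytic beta subunit and the nuclear member with the highest CPM, stood at 1369 and 1383 CPM in WT normal, 1060.4 and 1075 in WT starved, 1396 and 1440.0 in RA normal and 953 and 936 in RA starved samples. It fell in both, at -0.37 (SE 0.040, limma adjusted p = 2.18e-07) in WT and -0.58 (SE 0.040, limma adjusted p = 8.24e-10) in RA. Atp5l, a subunit of the membrane part, had the lowest interaction of the complex at -0.49 (SE 0.083, limma adjusted p = 0.000121), with -0.046 in WT (not called) and -0.53 in RA. Atp5j, which overlaps 397 exon bases of Gabpa on the opposite strand, had the highest at 0.13 (SE 0.062, limma adjusted p = 0.0984), which was not called.

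The c ring of the ATP synthase, which turns as protons pass, is built from 1 protein made by Atp5g1, Atp5g2 and Atp5g3, whose mature products are identical. The genes answered starvation in different ways. Atp5g1 stood at 69.7 and 73.7 CPM in WT normal, 75.4 and 78.6 in WT starved, 73.3 and 81.4 in RA normal and 60.6 and 61.2 in RA starved samples. Atp5g2 stood at 214 and 219.5 CPM in WT normal, 274 and 280.0 in WT starved, 221 and 239 in RA normal and 228 and 236 in RA starved samples. The WT starved samples held the most Atp5g2. Atp5g3 stood at 214 and 213 CPM in WT normal, 108 and 110.4 in WT starved, 239.8 and 234 in RA normal and 131 and 133 in RA starved samples. Only Atp5g3 fell in both genotypes, at -0.96 (SE 0.037, limma adjusted p = 1.75e-13) and -0.84 (SE 0.037, limma adjusted p = 2.68e-12). Atp5g2 rose in WT at 0.35 (SE 0.042, limma adjusted p = 6.76e-07) and changed by 0.013 (SE 0.042, limma adjusted p = 0.794) in RA, and Atp5g1 changed by 0.10 (SE 0.052, limma adjusted p = 0.0808) in WT and fell in RA at -0.34 (SE 0.052, limma adjusted p = 1.89e-05). The interaction was called for Atp5g1 (-0.44) and Atp5g2 (-0.34), and for Atp5g3 it was 0.12 (SE 0.052, limma adjusted p = 0.0677). Summed over the trio, 497 and 506 CPM in WT normal stood against 458 and 469 in WT starved samples, and 534 and 554 in RA normal against 419 and 430.0 in RA starved samples. Of that sum Atp5g3 made up 43.0% and 42.1% in WT normal, 23.7% and 23.5% in WT starved, 44.9% and 42.2% in RA normal and 31.2% and 30.9% in RA starved samples.

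Because the trio makes the same ring from separate promoters, their promoters are shown, from 250 bases before to 50 after the start, on the coding strand (RefSeq, GRCm38.p6). Atp5g1 lies at chr11:96075582-96075881, Atp5g2 at chr15:102670998-102671297 and Atp5g3 at chr2:73911277-73911576, all on the minus strand. Capitals mark the NRF1 core, GCGCANGCG, found on either strand; NRF1 is a transcription factor known for respiratory genes. The 2 matches in Atp5g2, 1 on each strand, overlap.
Atp5g1: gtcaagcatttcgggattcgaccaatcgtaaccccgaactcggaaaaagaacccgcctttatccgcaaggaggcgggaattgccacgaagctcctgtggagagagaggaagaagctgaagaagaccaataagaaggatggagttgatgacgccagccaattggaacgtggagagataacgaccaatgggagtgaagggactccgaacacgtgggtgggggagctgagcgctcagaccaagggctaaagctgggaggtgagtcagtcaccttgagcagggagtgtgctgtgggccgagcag
Atp5g2: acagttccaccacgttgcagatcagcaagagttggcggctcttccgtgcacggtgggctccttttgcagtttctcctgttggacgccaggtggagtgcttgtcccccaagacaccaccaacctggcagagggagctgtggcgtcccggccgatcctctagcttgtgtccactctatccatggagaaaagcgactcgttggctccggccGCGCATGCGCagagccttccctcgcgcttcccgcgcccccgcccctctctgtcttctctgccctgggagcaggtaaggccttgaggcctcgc
Atp5g3: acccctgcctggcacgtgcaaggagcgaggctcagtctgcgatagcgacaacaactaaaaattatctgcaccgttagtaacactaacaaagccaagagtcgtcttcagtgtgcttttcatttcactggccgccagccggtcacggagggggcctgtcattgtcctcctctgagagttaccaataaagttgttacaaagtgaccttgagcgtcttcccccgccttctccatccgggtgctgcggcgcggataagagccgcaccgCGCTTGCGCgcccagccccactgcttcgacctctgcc
The core was found in Atp5g2 and Atp5g3, which moved in opposite directions in WT, and its letters are not in the Atp5g1 window. Among the 77 nuclear members, 62 matched a promoter by symbol, and 20 of them (32.3%) held the core, against 14.8% of tested genes with a promoter and 6.25% of all promoters of this length. The YY1 core, AAGATGGCG (both strands, counted separately from the NRF1 core), was in 7 members (11.3%) against 3.42% and 1.40%. The median log2 change of the 20 members with the NRF1 core was -0.092 in WT and -0.27 in RA, and of the 42 without it -0.026 and -0.17. These matches describe letters only.

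**Figure D4:**
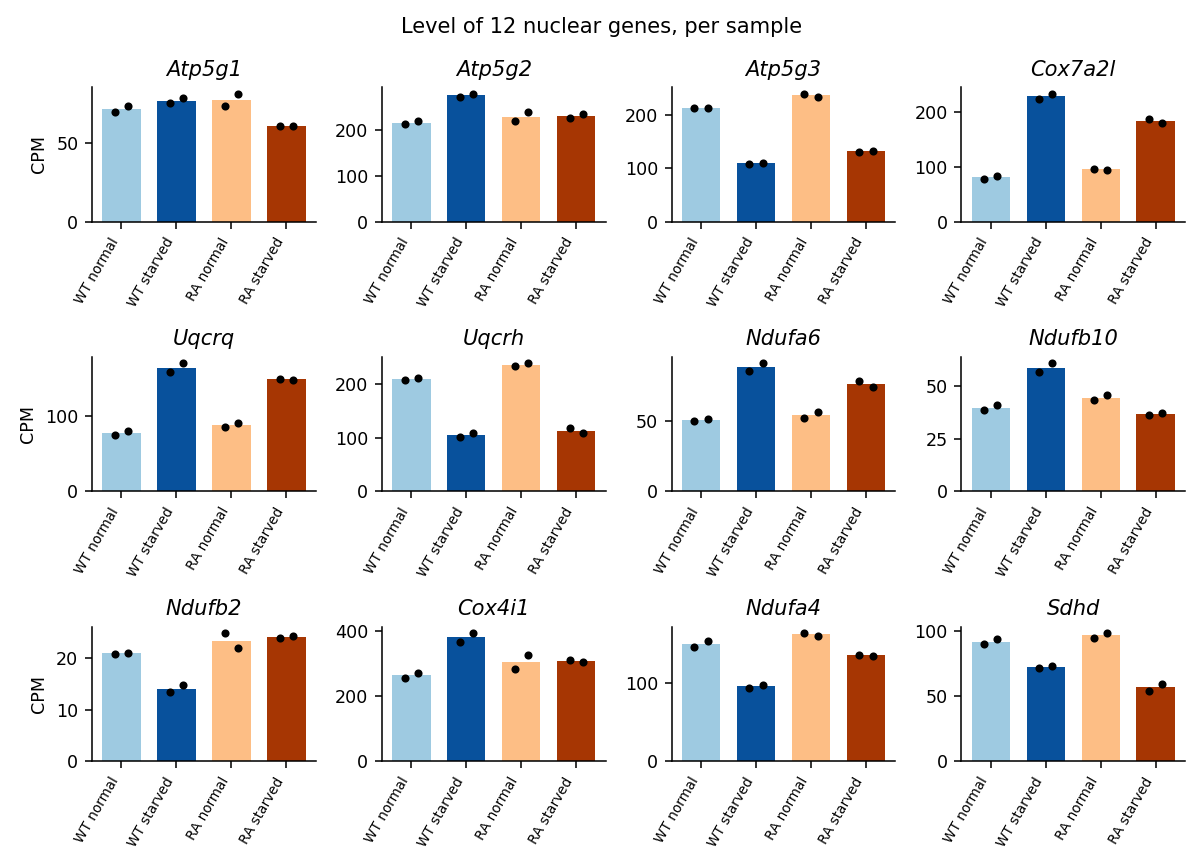
CPM (y axis, from 0) of 12 nuclear members in the 4 groups; bars are means and points the 2 samples of each group. Atp5g3 and Uqcrh are low in both starved groups, Cox7a2l and Uqcrq are high in both, and Ndufb10 and Cox4i1 are highest in WT starved samples.

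Of the members that are not structural subunits, Atp5sl, whose product is tied to complex I assembly, stood at 3.91 and 5.36 CPM in WT normal, 15.6 and 15.2 in WT starved, 4.94 and 5.35 in RA normal and 12.4 and 11.9 in RA starved samples. It rose at 1.55 (SE 0.11, limma adjusted p = 1.41e-09) in WT and 1.09 (SE 0.11, limma adjusted p = 2.27e-07) in RA. Atp5s changed by 0.12 in WT (not called) and 0.45 in RA (called higher).

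The test of the difference itself, RA response less WT response, called 35 of 77 nuclear members lower and 6 higher, with a median of -0.17. Of all tested genes 50.6% were called, 24.5% higher and 26.1% lower, with a median of -0.011. With scaling to total reads the nuclear calls were 29 lower and 12 higher, and with quantile normalization 32 lower and 10 higher. By complex, 11 of 35 nuclear genes of complex I were lower and 4 higher, 2 of 4 of complex II lower, 2 of 8 of complex III lower and 1 higher, 10 of 13 of complex IV lower and 1 higher, and 9 of 15 of complex V lower. The medians were -0.097, -0.090, -0.068, -0.28 and -0.20 in that order. Of the 13 mitochondrial members 3 were lower, mt-Co1 at -0.31 (SE 0.083, limma adjusted p = 0.00483), mt-Co2 at -0.25 (SE 0.077, limma adjusted p = 0.0122) and mt-Atp8 at -0.17 (SE 0.055, limma adjusted p = 0.0151). The mt-Co1 call was lost with no filter on low values, and quantile normalization sets its value to 0 by construction. The mt-Co2 call was lost with no filter, with quantile normalization and without the eBayes trend. It was also lost without WT normal replicate 1, WT starved replicate 2 or RA starved replicate 2. The mt-Atp8 call was lost with no filter, with quantile normalization, without the eBayes trend and with scaling to total reads or to the nuclear total. Leaving out WT normal replicate 2 or RA starved replicate 1 lost the mt-Atp8 call as well. None was called higher by limma, with 1 higher at unadjusted p under 0.05, 2 by edgeR and 1 by DESeq2. Scaling to total reads gave 2 lower and 2 higher mitochondrial calls, and quantile normalization 0 lower and 2 higher. The 7 mitochondrial genes of complex I had a median of 0.021, with 0 called by limma, 1 higher at unadjusted p under 0.05, 1 higher by edgeR and 1 lower by DESeq2.

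**Figure D5:**
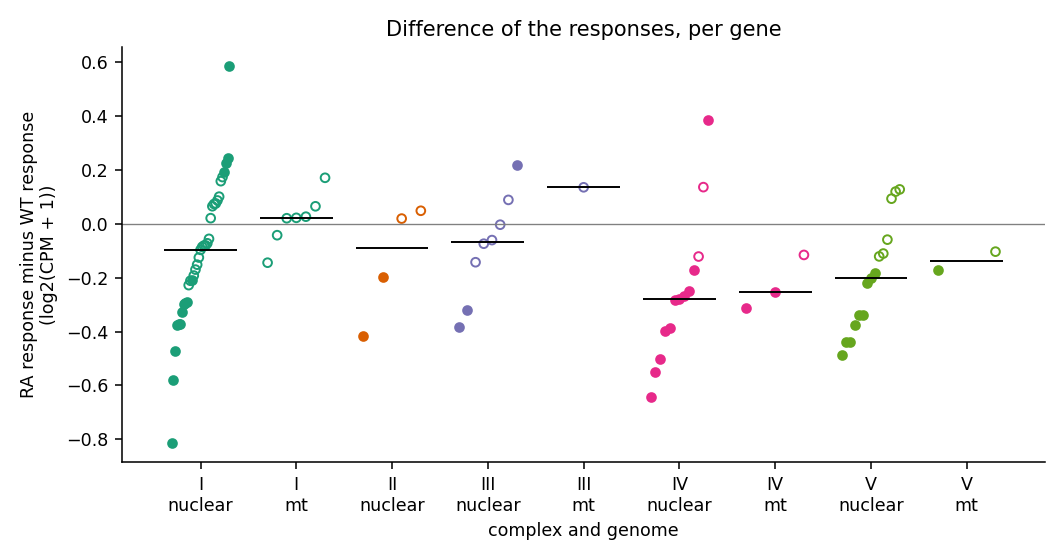
RA response less WT response for each subunit gene (y axis, log2(CPM + 1)), by complex and genome (x axis; mt, mitochondrial). Filled points were called by limma, open points were not, and black lines are medians, which lie lowest for complex IV at -0.28 (nuclear) and -0.25 (mitochondrial).

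The genotypes were also compared within each medium. These comparisons share samples with those above, so their values are given only side by side. In normal medium 21 of 77 nuclear members were called higher in RA and 0 lower, with a median of 0.13. Of all tested genes 9.63% were called, 6.68% higher and 2.95% lower. No nuclear member was lower at unadjusted p under 0.05 in limma, or by edgeR or DESeq2. The count of 21 changed with the scaling and with single samples, to 5 higher after scaling to total reads, 7 after quantile normalization, 0 without the trend in eBayes, 3 without WT normal replicate 1, 8 without RA normal replicate 2 and 10 without WT normal replicate 2. Without RA starved replicate 1 or 2, 13 were called. Cox7a2l had a log2 difference of 0.24 (SE 0.045, limma adjusted p = 0.0026) in normal medium, and its call was lost without the trend and without WT normal replicate 1. For the 13 mitochondrial members limma made 0 calls, with 3 lower at unadjusted p under 0.05, 1 lower by edgeR and 2 lower by DESeq2.

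Under starvation 22 nuclear members were higher in RA than in WT and 33 lower, with a median of -0.013. Of all tested genes 62.9% were called, 30.8% higher and 32.1% lower. Complex IV had 2 of 13 higher and 9 lower, and complex I 11 of 35 higher and 11 lower. The lowest value among the named nuclear subunits was that of Ndufb10 at -0.65 (SE 0.055, limma adjusted p = 2.2e-08), and the highest was that of Ndufb2 at 0.73 (SE 0.075, limma adjusted p = 2.48e-07). Among mitochondrial members 6 were lower in RA and 0 higher by limma, with 0 higher at unadjusted p under 0.05, 1 by edgeR and 0 by DESeq2. Scaling to total reads gave 1 higher and 5 lower, and quantile normalization 2 higher and 3 lower. The lowest was mt-Co1 at -0.33 (SE 0.059, limma adjusted p = 0.000122).

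Genes that serve the chain without being part of it were followed as lists, and the highest and the lowest called gene in WT with a mean of at least 10 CPM is named from each. Beside the counts below, 39.3% of all tested genes were called higher and 39.2% lower in WT, and 35.0% and 33.7% in RA. Of 49 assembly factors, 20 rose and 9 fell in WT, and 14 rose and 9 fell in RA, with medians of 0.12 and 0.0076. Surf1, needed for complex IV assembly, rose most at 0.90 (SE 0.055, limma adjusted p = 1.11e-10) in WT and 0.61 in RA, and Acad9, a complex I assembly factor, fell most at -0.52 (SE 0.057, limma adjusted p = 2.16e-07) and -0.32. Of 15 genes for cytochrome c and ubiquinone synthesis, 8 rose and 5 fell in WT, and 7 rose and 4 fell in RA. Coq5, a methyltransferase of ubiquinone synthesis, stood highest at 1.28 (SE 0.065, limma adjusted p = 7.99e-12) in WT and 0.68 in RA, and Pdss1, which makes the ubiquinone side chain, lowest at -0.98 (SE 0.068, limma adjusted p = 5.36e-10) and -0.75. Of 28 genes for expression and upkeep of mitochondrial DNA, 20 rose and 3 fell in WT, with a median of 0.36, and 15 rose and 6 fell in RA, with a median of 0.15. In the same WT samples 10 of the 13 protein genes of mitochondrial DNA fell. Top1mt stood at 19.0 and 21.3 CPM in WT normal, 54.5 and 58.8 in WT starved, 21.8 and 22.4 in RA normal and 45.1 and 40.7 in RA starved samples. The mitochondrial topoisomerase Top1mt had the highest change, 1.45 (SE 0.068, limma adjusted p = 3.07e-12) in WT and 0.93 in RA. Pnpt1, an RNA-degrading enzyme of mitochondria, fell most, -0.69 (SE 0.044, limma adjusted p = 2.03e-10) and -0.24. Tfam, which packs mitochondrial DNA and starts its transcription, rose at 0.42 (SE 0.048, limma adjusted p = 4.1e-07) in WT and 0.25 (SE 0.048, limma adjusted p = 0.000234) in RA.

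Among 12 tested transcription regulators of respiratory genes, 6 rose and 4 fell in WT, and 3 rose and 4 fell in RA. The shares of all tested genes were 39.3% higher and 39.2% lower in WT, and 35.0% and 33.7% in RA. Ppargc1a stood at 1.96 and 1.65 CPM in WT normal, 2.22 and 2.41 in WT starved, 1.38 and 1.61 in RA normal and 1.33 and 1.20 in RA starved samples. This coactivator (PGC-1alpha), known for driving mitochondrial biogenesis, was thus near the minimum, with a log2 change of 0.24 (SE 0.13, limma adjusted p = 0.0971) in WT and -0.14 (SE 0.13, limma adjusted p = 0.359) in RA, neither of them called. Its relative Ppargc1b lay under the minimum. Pprc1 stood at 172 and 166 CPM in WT normal, 242 and 229.6 in WT starved, 156 and 162 in RA normal and 191 and 189 in RA starved samples. The third member of that family rose at 0.48 (SE 0.040, limma adjusted p = 6.37e-09) in WT and 0.25 (SE 0.040, limma adjusted p = 2.51e-05) in RA. Nrf1 rose in WT at 0.20 (SE 0.052, limma adjusted p = 0.002) and changed by 0.052 (SE 0.052, limma adjusted p = 0.383) in RA. Gabpa, the DNA-binding part of NRF2, fell at -0.21 (SE 0.047, limma adjusted p = 0.000481) in WT and -0.36 (SE 0.047, limma adjusted p = 2.6e-06) in RA, with 397 exon bases shared with Atp5j, which fell as well. Esrra, an orphan nuclear receptor, was called higher in WT at 0.19 (SE 0.076, limma adjusted p = 0.0299) and changed by 0.011 (SE 0.076, limma adjusted p = 0.908) in RA. Its WT call was not made by edgeR or DESeq2. That call was also lost with no filter, with scaling to total reads, without the eBayes trend and without replicate 2 of either WT group. The highest and the lowest of the list in WT were the nuclear receptors Pparg at 0.79 (SE 0.092, limma adjusted p = 5.83e-07) and Rxra at -0.92 (SE 0.063, limma adjusted p = 4.9e-10).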

How the data were processed

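RNA from the 8 MEF samples (4 groups of 2) was sequenced as paired-end, poly(A)-selected libraries. Per the submitters' processing notes the authors used TopHat2 (2.0.9), mm9, bedtools and edgeR; the counting tool, its annotation and its use of strand were not given in the sources used here. The authors deposited 1 table of normalized signal, read counts relative to a scaled library size (CPM), so column sums differ between samples; plain CPM had been assumed when the tests were chosen, and the test stayed the same. The columns marked minus and plus were read as normal and starved. Whole reads were recovered for 100% of non-zero values (within 0.01), giving 43205841 to 56363034 reads per sample, and most low counts were even, as when both mates are counted.

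Genes with at least 1 CPM in at least 2 of 8 samples (16232) were tested with limma (3.58.1, R 4.3.3) on log2(CPM + 1), a scale that understates changes of low genes, in 1 group-means model over all samples with eBayes trend, 2-sided, with BH adjustment over all tested genes and calls at adjusted p under 0.05. Alternatives were pseudocounts of 0.1 and 5, no filter, other scalings, other model settings, edgeR (4.0.16) and DESeq2 (1.42.0) on recovered reads, and leaving out each library; edgeR on halved reads was added after seeing the data. The scripts were tested on simulated data. Members and lists were chosen with earlier results of these data known. Named genes were all mitochondrial members, per complex the nuclear extremes of each response and of the interaction among those with a mean of at least 10 CPM, isoform sets, the SDH subunits, main regulators, and the called WT extremes of each other list at that mean. Ndufb11, Ndufv1, Ndufs1, Atp5b, Atp5s, mt-Ts1, Gm42420 and Itgad were added after their values were seen. Exon overlaps, lengths and copies came from GENCODE M21 (GRCm38, BLAST+ 2.17.0), not from mm9.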

Additional observations from a re-analysis of the deposited data

Results flagged for a closer look

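The starvation response differed between RA and WT cells by limma's interaction test for 41 of 77 nuclear and 3 of 13 mitochondrial members, against 50.6% of all tested genes. All values here are the RA response less the WT response on the log2(CPM + 1) scale. Mitochondrial values were -0.314 for mt-Co1, -0.253 for mt-Co2 and -0.173 for mt-Atp8. In complex I the value was -0.815 for Ndufb10, -0.296 for Ndufa6, 0.243 for Ndufa5 and 0.583 for Ndufb2. In complex II it was -0.417 for Sdhd and -0.198 for Sdhb, and in complex III -0.384 for Uqcr10, -0.319 for Uqcrq and 0.219 for Uqcrc1. Complex IV had -0.551 for Cox7a2l, -0.501 for Cox4i1, -0.279 for Cox6a1, -0.267 for Cox8a, -0.25 for Cox6b1, -0.172 for Cox7b and 0.382 for Ndufa4. Cox6a2 of that complex reached 1 CPM only in starved samples, so its value of -0.643 is a description without a test. That value ran from -0.999 to -0.429 across the alternatives, and the 41 nuclear members include Cox6a2. Complex V had -0.489 for Atp5l, -0.441 for Atp5g1 and -0.34 for Atp5g2. The calls for Ndufa5, Sdhb, Cox7b, Cox6b1, mt-Co2 and mt-Atp8 were each lost on leaving out at least 1 library. With groups of 2, single samples far from their group could not be looked for.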

How the results depend on the processing

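Across 22 alternatives (21 for the interaction, for which a fit of only the groups compared was not run) both starvation responses and the nuclear RA-WT difference under starvation and interaction kept their counts of calls within 1.5 times. The 21 nuclear calls of RA normal against WT normal became 4 with no filter, 5 with total-read scaling, 5 with nuclear total scaling, 7 with quantile normalization, 13 with only the groups compared, 0 without the eBayes trend, 5 at adjusted p under 0.01 and 12 with DESeq2, and 3 to 25 on leaving out 1 library. The 0 mitochondrial calls of that comparison became 4 with total-read scaling, 4 with nuclear total scaling, 4 with quantile normalization, 1 with edgeR, 2 with DESeq2 and 1 on halved reads, and 0 to 1 on leaving out 1 library (1 without RA normal replicate 2). The 6 mitochondrial calls under starvation became 3 without the trend. The 3 mitochondrial interaction calls became 0 with no filter, 1 without the trend, 1 at adjusted p under 0.01, 5 with edgeR, 5 with DESeq2, 5 on halved reads, and 2 to 5 on leaving out 1 library, with 5 without WT starved replicate 1 or RA normal replicate 2. Same-numbered samples correlated at -0.00764 to 0.157 after removing group means, and at -0.0272 to 0.303 over genes with a mean over 10 CPM. Over the latter genes 3 of 6 pairs of groups exceeded 0.1. These were the pairs among WT normal, WT starved and RA normal (0.181, 0.197 and 0.303), and the pairs with RA starved stayed below 0.1. Whether same-numbered samples share a batch was not tested, and the main model held no replicate block. With the replicate block, mitochondrial calls became 1 in RA normal against WT normal and 5 in the interaction. Quantile normalization turned mt-Co2 in the WT response to -0.063 and Pdss1 in RA starved against WT starved to -0.0033. Except where the number of genes or samples fell, the cause was not tested. With 2 samples a group, small differences may have gone uncalled.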
